A study of Danio rerio with 24 samples.

Results

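Transcripts of 7 genes that make, modify, activate or burn fatty acids were followed in the liver of zebrafish exposed to mercuric chloride (HgCl2). The genes were taken by symbol from the annotation of the array's probes. They were chosen with earlier results of these data known. Counts of calls among them beside the share of all probes therefore describe the genes and test no excess. acacb, elovl5 and fads2 stand for synthesis, elongation and desaturation, and acsl3b, cpt1ab, echs1 and acad9 for activation, import into mitochondria and oxidation. They are represented by 8 of the 16340 probes tested, since elovl5 has 2, and by 7 of the 5355 genes with a probe of 1 symbol. Adult fish between 6 months and 1 year old, from a local farm, were held with HgCl2 at 200 μg/L or without it, in water renewed daily, and livers were taken after 8, 24, 48 or 96 h. Each of these 8 groups has 3 arrays, and each array carried liver RNA pooled from 4 fish, labelled with Cy5, beside a Cy3-labelled reference made from livers of male and female wild-type fish. Which sexes went into a sample pool is not given in the sources used here. A value is the log2 ratio of Cy5 to Cy3 of a spot. Because no array had the dyes exchanged, 0 need not mark the level of the reference for a given probe. Ratios are therefore compared between arrays for 1 probe and never between probes.

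In the liver, long-chain fatty acids are built in the cytosol from malonyl-CoA, which acetyl-CoA carboxylases produce, and are then lengthened by elongases and given double bonds by desaturases. To be oxidised, a fatty acid is first joined to coenzyme A, passes into the mitochondrion as a carnitine ester, and is shortened by repeated rounds of dehydrogenation, hydration, oxidation and cleavage. In mammals, malonyl-CoA made by acetyl-CoA carboxylase beta, the product of the acacb orthologue, blocks the carnitine step, so that synthesis and oxidation do not run at full rate together.

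The 2 arms did not move as blocks. Averaged over the 4 times, acacb and 1 of the 2 elovl5 probes were higher in exposed than in control fish while fads2 was lower, and cpt1ab was higher while acsl3b and echs1 were lower. Thus 6 of the 8 probes passed the test, 3 higher and 3 lower, beside 31.5% of all probes (17.7% higher and 13.8% lower). A call is an adjusted p under 0.05 in limma with Benjamini-Hochberg adjustment over all 16340 probes. That of acsl3b just passed (adjusted p = 0.0495) and was lost in 17 of 24 fits that left out 1 array. These p-values measure the spread between arrays, each a pool of fish. For each probe the standard error (SE) of a difference rests on 1 spread shared by all 8 groups. It does not rest on the arrays of a single time alone. In whole liver, fewer cells of a type and less RNA per cell cannot be told apart.

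The levels of all 8 probes are described first for how well they were seen. A spot counts as above background where at least 50% of its pixels lay clearly above the local background. By that mark acacb and both elovl5 probes were seen in both channels on all 24 arrays. cpt1ab was seen on 24 arrays in Cy5 and on 22 in Cy3, and echs1 on 24 and 23. The fads2 spot of control 24 h replicate 1 reads 0 in every channel and was treated as missing, which leaves 23 arrays. acsl3b was above background in Cy5 on 20 arrays but in Cy3 on only 3, so its ratios rest on a reference signal that is mostly at background. acad9, an acyl-CoA dehydrogenase that in mammals also helps to assemble respiratory complex I, was above background in Cy5 on 2 of 24 arrays and in Cy3 on 0. No fold is given for it, and its passing of the test across all groups (adjusted p = 0.045) rests on values below background. Across all 8 groups 6 of the 8 probes passed this test, beside 18.6% of all probes.

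**Figure D1:**
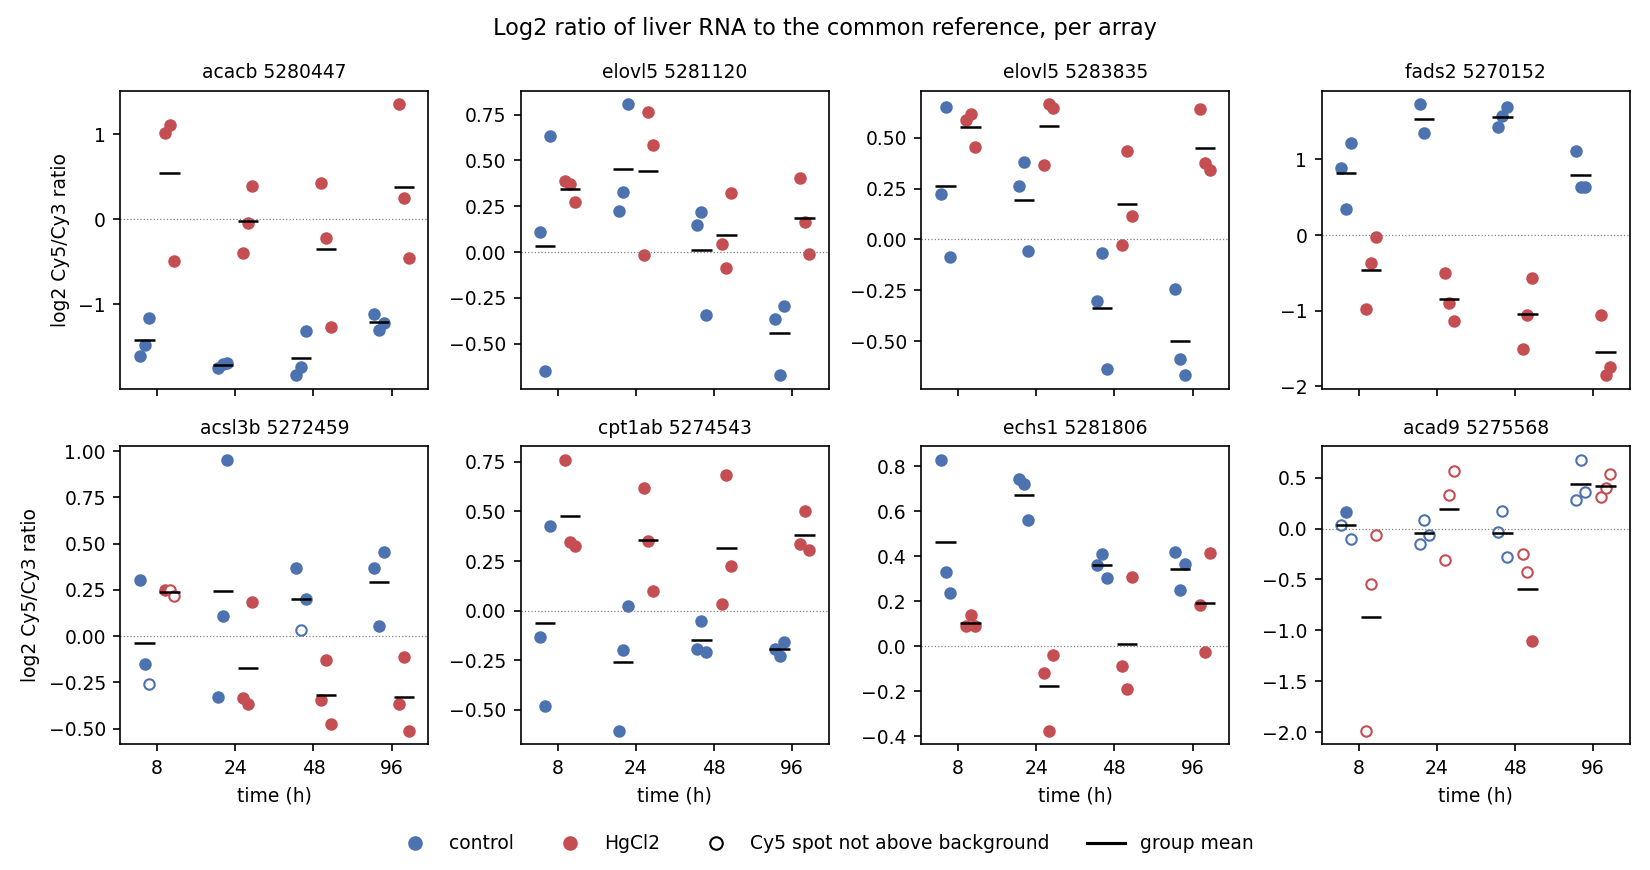
Log2 Cy5/Cy3 ratio (vertical axis, a scale of its own in each panel) of the 8 probes against time in h, with 1 point per array, a bar at each group mean, and open points where the Cy5 spot was not above background. The exposed points of fads2 lie below all its control points, those of acacb lie above the controls of their own time and spread widely, and nearly all acad9 points are open.

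fads2, the desaturase of the first step from dietary polyunsaturated fatty acids to their long-chain forms, had the largest averaged difference of the 7 genes. In controls the log2 ratio was 0.89, 0.34 and 1.22 after 8 h, 1.73 and 1.35 after 24 h, 1.43, 1.57 and 1.69 after 48 h, and 1.12, 0.64 and 0.63 after 96 h. In exposed fish it was -0.98, -0.37 and -0.03 after 8 h, -0.50, -0.89 and -1.13 after 24 h, -1.51, -1.06 and -0.57 after 48 h, and -1.05, -1.85 and -1.75 after 96 h. All 11 control values were above 0 and all 12 exposed values were below it, so the arms did not overlap, as held for 1.41% of all probes. Control means were close to each other at 24 and 48 h and lower at 8 and 96 h, and exposed means were, in order of time, -0.46, -0.84, -1.05 and -1.55 on the log2 ratio scale.

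The fads2 difference, exposed minus control, was -1.28 ± 0.29 (SE, n = 3 against 3) at 8 h, with an adjusted p of 0.0396. It was -2.38 ± 0.32 at 24 h against 2 control arrays (adjusted p = 0.000146), -2.61 ± 0.29 at 48 h (adjusted p = 2.16e-05) and -2.35 ± 0.29 at 96 h (adjusted p = 3.4e-05). The mean over the 4 times was -2.15 ± 0.15, which is 4.45-fold lower (adjusted p = 4.69e-09). fads2 was thus lower at every time, and the 8 h call was the least firm. It was lost when any of 7 single arrays was left out, 3 of which belong to other times and 4 to 8 h: control replicate 1 (difference -1.24, adjusted p = 0.0826), control replicate 3 (-1.08, 0.14), exposed replicate 1 (-1.02, 0.214) and exposed replicate 2 (-1.32, 0.0846). The arrays of other times were control 24 h replicate 2, control 48 h replicate 1 and control 96 h replicate 3, without which the difference stayed at -1.28 and the adjusted p was 0.0501 to 0.0522. With the spot at 0 kept, the difference at 24 h was -1.80.

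acacb, the acetyl-CoA carboxylase whose mammalian counterpart sits at the outer mitochondrial membrane, went the other way. In controls its log2 ratio was -1.60, -1.48 and -1.16 after 8 h, -1.75, -1.70 and -1.69 after 24 h, -1.83, -1.74 and -1.31 after 48 h, and -1.12, -1.30 and -1.22 after 96 h. In exposed fish it was 1.02, 1.1 and -0.49 after 8 h, -0.40, -0.04 and 0.40 after 24 h, 0.42, -0.23 and -1.26 after 48 h, and 1.35, 0.25 and -0.45 after 96 h. Every exposed array was above the controls of its own time, but across all times the arms met, since exposed 48 h replicate 3 (-1.26) lay below control 96 h replicate 1 (-1.12). The controls were tight and the exposed pools were not: the SD within groups was 0.186 over control groups and 0.792 over exposed groups, a ratio of 4.25.

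The acacb difference was 1.96 ± 0.43 (SE, n = 3 against 3) at 8 h (adjusted p = 0.0297), 1.70 ± 0.43 at 24 h (adjusted p = 0.0133), 1.27 ± 0.43 at 48 h (adjusted p = 0.0654, not a call) and 1.60 ± 0.43 at 96 h (adjusted p = 0.0169). Over the 4 times it was 1.63 ± 0.21, or 3.10-fold higher (adjusted p = 7.52e-06). The SE is the same at each single time because the tight controls and the wide exposed groups share 1 spread. It need not describe the spread at a given time. The average was called whichever array was left out, and the single times depended on particular arrays. At 8 h the call was lost without any of control replicates 1, 2 and 3 (differences of 1.87, 1.93 and 2.09, adjusted p of 0.0738, 0.0872 and 0.0627) or exposed replicates 1 and 2 (1.72 and 1.68, adjusted p of 0.177 and 0.126). At 24 h it was lost without exposed replicate 3 (1.49, adjusted p = 0.0681), and at 96 h without control replicate 2 (1.55, adjusted p = 0.0623) or exposed replicate 1 (1.11, adjusted p = 0.0945). By the methods' t-test the calls at 8, 24 and 96 h were lost (adjusted p of 0.459, 0.0827 and 0.174). With the 6 arrays of the time alone those at 8 h (adjusted p = 0.147) and 96 h (adjusted p = 0.0504) were lost. At 48 h a call was gained without exposed 48 h replicate 3, the lowest exposed array (1.73, adjusted p = 0.02). It was also gained without exposed 8 h replicate 3, exposed 96 h replicate 1 or exposed 96 h replicate 3, with the difference at 1.27 and adjusted p from 0.0383 to 0.0423.

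elovl5, which lengthens polyunsaturated fatty acids, has 2 probes, and they did not give the same picture. For probe 5283835 the control log2 ratios were 0.22, 0.65 and -0.09 after 8 h, 0.26, 0.38 and -0.06 after 24 h, -0.30, -0.06 and -0.64 after 48 h, and -0.24, -0.59 and -0.67 after 96 h. The exposed values of this probe were 0.59, 0.62 and 0.45 after 8 h, 0.37, 0.67 and 0.64 after 24 h, -0.03, 0.43 and 0.12 after 48 h, and 0.64, 0.37 and 0.34 after 96 h. Exposed means stayed between 0.17 and 0.56, and control means were 0.26 at 8 h, 0.20 at 24 h, -0.34 at 48 h and -0.50 at 96 h. The difference between controls at 96 h and at 8 h was -0.76 ± 0.20 but did not pass the test (adjusted p = 0.133).

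The exposed minus control difference of probe 5283835 was 0.29, 0.36 and 0.51 ± 0.20 (SE) at 8, 24 and 48 h, none of them a call (adjusted p of 0.584, 0.263 and 0.113), and 0.95 ± 0.20 at 96 h (adjusted p = 0.00318). The 96 h call was lost by the methods' t-test (adjusted p = 0.0627). The average of this probe was 0.53 ± 0.10, or 1.44-fold higher (adjusted p = 0.000366). The second probe, 5281120, ranged from -0.67 to 0.81 in controls with a median of 0.13, and from -0.08 to 0.77 in exposed fish with a median of 0.30. Its values overlapped at 8, 24 and 48 h and were apart at 96 h, where the difference was 0.63 ± 0.26 (adjusted p = 0.119). Its average, 0.25 ± 0.13, was not a call either (adjusted p = 0.148, 95% interval -0.02 to 0.53), and without control 8 h replicate 3 it was 0.33 with an adjusted p of 0.0434. Over the 24 arrays the ratios of the 2 probes had r = 0.445, and their deviations from group means had r = -0.207.

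cpt1ab encodes an orthologue of the liver-type carnitine palmitoyltransferase, the entry step that malonyl-CoA blocks in mammals. Its control log2 ratios were -0.13, -0.48 and 0.43 after 8 h, -0.61, -0.20 and 0.02 after 24 h, -0.19, -0.05 and -0.21 after 48 h, and -0.19, -0.23 and -0.16 after 96 h. Its exposed values were 0.76, 0.34 and 0.32 after 8 h, 0.62, 0.35 and 0.10 after 24 h, 0.03, 0.68 and 0.23 after 48 h, and 0.34, 0.50 and 0.31 after 96 h. All 12 exposed values were above 0, and only 2 controls were, control 8 h replicate 3 and control 24 h replicate 3. No single time passed the test, with differences of 0.54, 0.62, 0.46 and 0.57 ± 0.22 (SE) and adjusted p of 0.282, 0.0742, 0.191 and 0.0854 at 8, 24, 48 and 96 h. The average of 0.55 ± 0.11, or 1.46-fold higher, did (adjusted p = 0.000626), and it kept its call without each array in turn. At 24 h a call was gained without control 8 h replicate 3 (0.62, adjusted p = 0.0434). At 96 h it was gained without background correction (0.50, adjusted p = 0.0395), with array weights (0.57, 0.033) and in Cy5 alone (0.73, 0.0487). The 96 h difference also passed with the 6 arrays of that time alone (adjusted p = 0.0363) and by the methods' t-test (0.0371).

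echs1, the enoyl-CoA hydratase of the second step of mitochondrial oxidation, was lower in exposed fish. Its control log2 ratios were 0.83, 0.33 and 0.24 after 8 h, 0.75, 0.72 and 0.56 after 24 h, 0.36, 0.41 and 0.31 after 48 h, and 0.42, 0.25 and 0.36 after 96 h. Its exposed ratios were 0.09, 0.14 and 0.09 after 8 h, -0.12, -0.38 and -0.04 after 24 h, -0.09, -0.19 and 0.31 after 48 h, and 0.18, -0.03 and 0.41 after 96 h. The groups were apart at 8 and 24 h and overlapped at 48 and 96 h, where 1 exposed array at each time reached the control range. The difference was -0.85 ± 0.17 (SE) at 24 h, which is 1.81-fold lower (adjusted p = 0.00248), and -0.36, -0.35 and -0.15 ± 0.17 at 8, 48 and 96 h (adjusted p of 0.368, 0.203 and 0.587). The average of -0.43 ± 0.08 was called (adjusted p = 0.000536), and both calls held without each array in turn.

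acsl3b, a long-chain acyl-CoA synthetase that joins fatty acids to coenzyme A, had the weakest call. Its control log2 ratios ran from -0.33 to 0.95 with a median of 0.15, and its exposed ratios from -0.51 to 0.25 with a median of -0.23. The groups overlapped at 8 and 24 h and were apart at 48 and 96 h, with the exposed arrays lower. At 8 h only 1 of the 3 exposed spots was above background in Cy5. The differences were 0.27, -0.41, -0.52 and -0.62 ± 0.24 (SE) at 8, 24, 48 and 96 h, none of them a call (adjusted p of 0.7, 0.306, 0.193 and 0.0956). The average of -0.32 ± 0.12 just passed (adjusted p = 0.0495) and was lost in 17 of 24 fits that left out 1 array, with values between -0.39 and -0.23. It was also lost with plain subtraction of background (-0.08, adjusted p = 0.829), which made 8 h a called rise (1.84, adjusted p = 0.0434), and with median centring (-0.26), the authors' table (-0.31) and Cy5 alone (-0.22). The 24 h difference rested on single control arrays: it was -0.06 when replicate 3 of that time was left out (adjusted p = 0.913) and -0.70 when replicate 1 was (adjusted p = 0.0809). At 96 h a call was gained without control 24 h replicate 3 (-0.62, adjusted p = 0.0372).

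**Figure D2:**
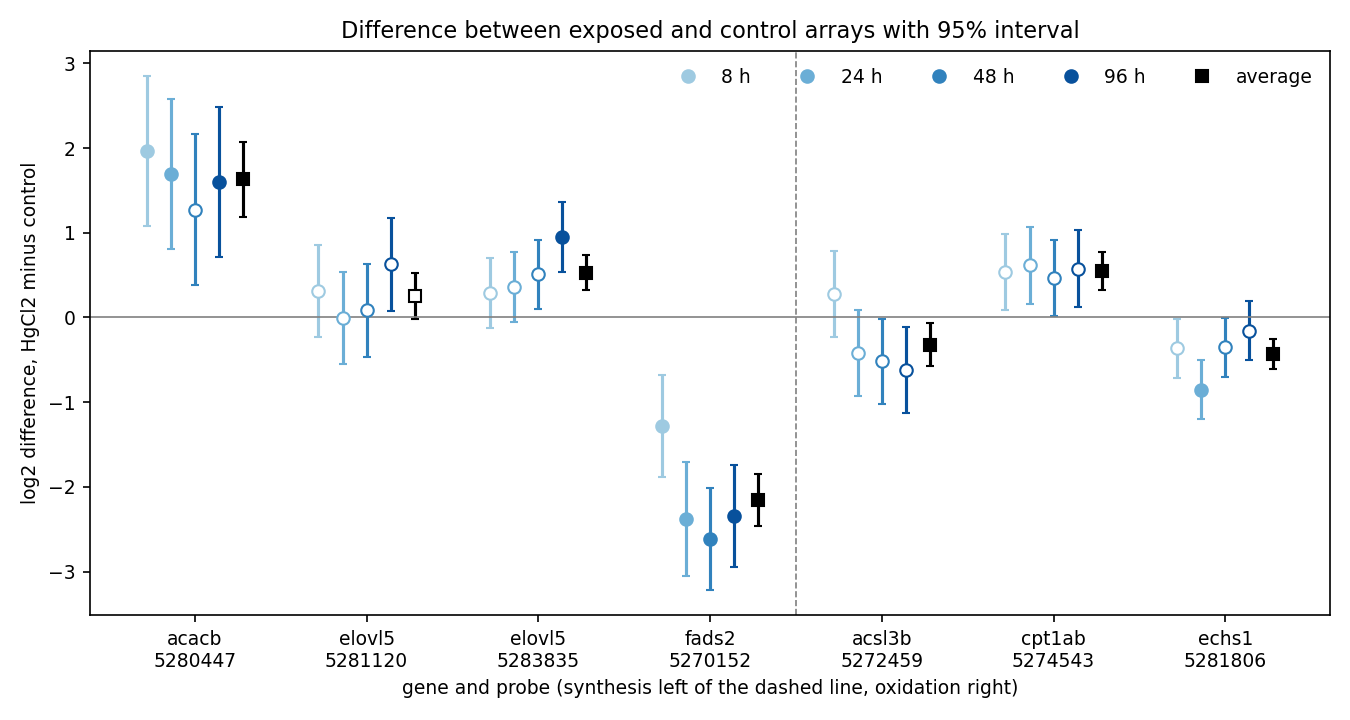
Difference in log2 ratio, HgCl2 minus control (vertical axis), with its 95% interval for 7 probes at 8, 24, 48 and 96 h (circles) and averaged (squares), filled where the adjusted p was under 0.05. fads2 is below 0 at every time and acacb above it, cpt1ab lies near 0.5 throughout, and acad9, below background, is left out.

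Counted by time, 2 of the 8 probes were called at 8 h (acacb higher, fads2 lower), beside 0.985% of all probes (0.63% higher and 0.355% lower). At 24 h 3 were called (acacb higher, fads2 and echs1 lower), beside 10.8% (6.61% higher and 4.23% lower). At 48 h 1 was called (fads2, lower), beside 8.65% (5.29% higher and 3.37% lower), and at 96 h 3 were called (acacb and elovl5 probe 5283835 higher, fads2 lower), beside 12.9% (7.48% higher and 5.42% lower). Before adjustment, 5, 4, 6 and 6 of the 8 probes had p under 0.05 at 8, 24, 48 and 96 h, beside 12.8%, 25.3%, 24.4% and 28.1% of all probes. The 5 at 8 h include acad9, which is below background. As counted here, all calls at single times lay in the synthesis arm apart from echs1 at 24 h, and that arm itself held rises and falls. Some alternatives also called cpt1ab at 96 h. In the oxidation arm acad9 was mostly below background, and acsl3b was seen in Cy3 on only 3 of 24 arrays. The arms were thus not measured equally well. The 3 exposed and 3 control arrays of a time did not overlap for 3, 4, 5 and 6 of the 8 probes at 8, 24, 48 and 96 h, beside 17.9%, 27.8%, 29.7% and 36.5% of all probes.

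None of the 8 probes passed a test of a change in the effect between times. The count was 0 for 24 h against 8 h (0 of all probes called), for 48 h against 8 h (0.0918%), for 96 h against 8 h (0.991%) and for 96 h against 24 h (0.104%). Before adjustment 3, 2, 3 and 2 of the 8 probes had p under 0.05 in these 4 tests, beside 8.83%, 11.8%, 15.8% and 11.8% of all probes. The 3 for 24 h against 8 h include acad9, which is below background. fads2 was among the 2 at 48 h against 8 h, where the later effect minus the earlier was -1.33 ± 0.41 (SE, adjusted p = 0.202). echs1 was among the 2 at 96 h against 24 h, where the same quantity was 0.70 ± 0.24 (adjusted p = 0.255). Between controls of 96 h and 8 h no probe was called (0.214% of all probes), and 1, elovl5 probe 5283835, had an unadjusted p under 0.05.

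When the 8 groups were ordered by mean log2 ratio, few neighbours stood apart. For fads2 the 4 control groups led, and the gaps between 24 h and 8 h controls (0.72, pooled SD 0.37) and between 96 h controls and exposed fish at 8 h (1.26, pooled SD 0.39) were the only ones with ranges that did not overlap. For acacb the exposed groups of 8, 96, 24 and 48 h led, in that order, followed by the controls of 96, 8, 48 and 24 h, and every pair of neighbours overlapped. For elovl5 probe 5283835 the single break lay between exposed fish at 48 h and controls at 48 h, a gap of 0.51 (pooled SD 0.26).

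The ratios of several members were related over all arrays and less so within groups. Over the 23 arrays with a value, acacb and fads2 ratios had r = -0.792, and acacb and cpt1ab had r = 0.684 over 24. As deviations from group means, which take the exposure and the time out, these were -0.224 and 0.04. cpt1ab and echs1 had r = -0.67 over ratios and -0.333 over deviations. These are descriptions over arrays that share groups, and over the 12 exposed arrays the deviations of acacb had r of at most 0.437 in size with those of the other members, leaving aside acad9.

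Since the reference was labelled on every array, each dye can be read alone. After quantile scaling of intensities across arrays, Cy5 of fads2 was -2.27 ± 0.41 (SE) in exposed minus control arrays averaged over time (adjusted p = 0.000228), while Cy3 was -0.12 ± 0.37 (adjusted p = 0.864). In Cy5 alone its difference was -1.79, -2.61, -2.37 and -2.31 at 8, 24, 48 and 96 h, and only that of 96 h was a call (adjusted p of 0.126, 0.0807, 0.0668 and 0.0403). cpt1ab stood likewise at 0.51 ± 0.13 in Cy5 (adjusted p = 0.00484) and -0.04 ± 0.16 in Cy3. For acacb, Cy5 was 2.02 ± 0.26 (adjusted p = 5.12e-06) and Cy3 0.39 ± 0.14 (adjusted p = 0.057), and at 24 h Cy5 alone was 1.57 (adjusted p = 0.0742). At 96 h the acacb reference signal itself was higher on arrays of exposed fish, by 1.07 ± 0.28 (adjusted p = 0.0115), beside 2.67 ± 0.53 in Cy5.

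Of the elovl5 probes, 5281120 was called higher in both dyes on average, while its ratio was not a call. For probe 5281120 Cy5 was higher by 1.14 ± 0.17 (SE, adjusted p = 1.85e-05) and Cy3 by 0.88 ± 0.12 (adjusted p = 3.53e-05). For probe 5283835 at 96 h Cy5 was higher by 2.06 ± 0.44 (adjusted p = 0.00176) and Cy3 by 1.11 ± 0.42, not a call (adjusted p = 0.0838). Averaged, neither dye of this probe was called, with Cy5 at 0.35 ± 0.22 (adjusted p = 0.239) and Cy3 at -0.18 ± 0.21 (adjusted p = 0.602). echs1 in Cy5 alone was -0.31 ± 0.18 averaged (adjusted p = 0.208) and -0.84 ± 0.37 at 24 h (adjusted p = 0.187). The Cy3 signal differed between exposed and control arrays in 12.7%, 1.94%, 0.569% and 13.6% of all probes at 8, 24, 48 and 96 h, although the same kind of reference was used throughout. Clustered on Cy3 into 4 sets, the arrays fell into sets of 8 and 4 control arrays and of 4 and 8 exposed arrays. None was mixed, so that set and treatment cannot be told apart. The sets also followed time within each arm. The 4 control arrays were those of 96 h and control 48 h replicate 3. The 4 exposed arrays were those of 8 h and exposed 24 h replicate 1. Differences between early and late times are thus largely tied to the set as well.

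**Figure D3:**
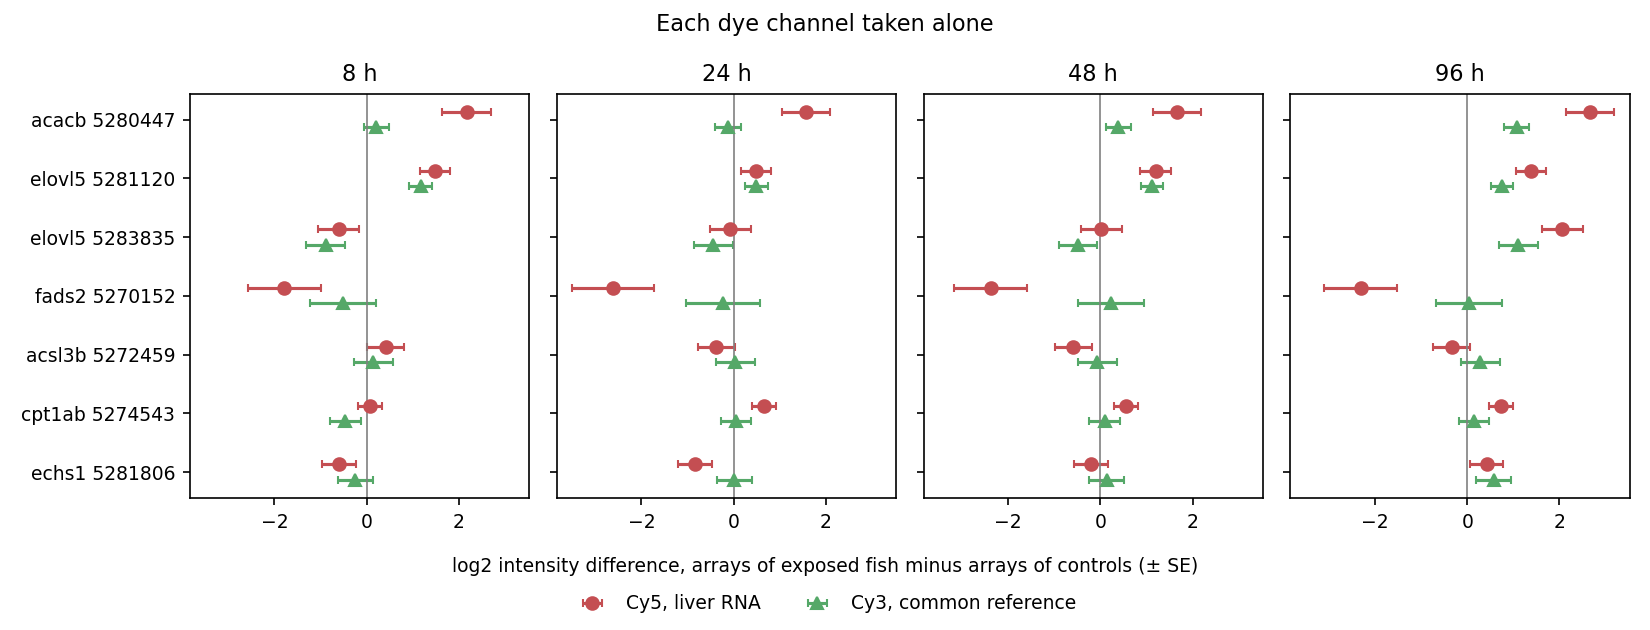
Log2 intensity difference between arrays of exposed fish and of controls (horizontal axis, ± SE) for 7 probes at 4 times, with Cy5 from the liver RNA as circles and Cy3 from the reference as triangles. The fads2 reference lies within 1 SE of 0 at each time while its Cy5 is below 0, and for elovl5 probe 5281120 both dyes lie above 0 at each time.

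Other genes of the same pathways were read from 6 lists, which include the members. Of 42 list genes with a probe that carries their symbol alone, 7 were higher and 11 lower averaged over the 4 times (16.7% and 26.2%). The shares of all 5355 genes were 17.9% and 14.6%. Without the 7 members 4 of 35 were higher and 8 lower (11.4% and 22.9%). At 8, 24, 48 and 96 h the 42 genes gave 3, 7, 3 and 7 calls (7.1%, 16.7%, 7.1% and 16.7%), beside 0.71%, 10.9%, 8.78% and 13.2% of all genes. The 35 genes that are not members gave 1, 4, 2 and 4 calls (2.9%, 11.4%, 5.7% and 11.4%). The median averaged difference of the 42 was -0.19, and that of all genes was 0.00.

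Among 6 measured genes of fatty acid synthesis 3 were higher and 2 lower, with a median of 0.34. acaca, the other acetyl-CoA carboxylase, rose by 1.1 ± 0.30 (SE, adjusted p = 0.00829), its mean log2 ratio being -0.75 in controls and 0.36 in exposed fish. Control 8 h replicate 1 stood at 1.60, while the other controls lay between -1.17 and -0.61. In Cy5 alone the acaca call was lost (0.76, adjusted p = 0.104). slc25a1b, which exports citrate from mitochondria as carbon for synthesis, rose by 0.54 ± 0.15 (adjusted p = 0.0077). The related slc25a1a, named after its values were seen, did not pass (0.13 ± 0.07, adjusted p = 0.145). acss2, which makes acetyl-CoA from acetate, fell by 0.46 (adjusted p = 0.00258), and hsd17b8, which in mammals belongs to a reductase of mitochondrial fatty acid synthesis, fell by 0.35 (adjusted p = 0.018). How well the acaca and acacb probes tell these related transcripts apart was not tested.

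Of 8 measured elongation and desaturation genes, elovl5 was higher and fads2 lower, and the median was -0.20. hacd2, the dehydratase of the elongation cycle, came next at -0.35 ± 0.13 (SE) and did not pass (adjusted p = 0.0523), though it fell at 96 h by 0.89 ± 0.27 (adjusted p = 0.0322). The elongase elovl1b, named after its values were seen, was also lower at 96 h, at -0.79 ± 0.24 (adjusted p = 0.0317), and with fads2 that made 3 lower genes of this list at that time. The 96 h fall of hacd2 lost its call in 5 of 24 fits that left out 1 array, and in the authors' table (-0.84, adjusted p = 0.0862). All 5 left out an array of 96 h itself: control replicate 1, 2 or 3, or exposed replicate 1 or 3. Its average gained a call without background correction (adjusted p = 0.0324), with median centring (0.0413), with dim probes left out (0.0489) and with array weights (0.0312). In Cy5 alone it was also called (-0.90, adjusted p = 8.32e-05), as it was when some single arrays were left out. Of 10 activation and import genes 2 were higher and 2 lower, with a median of -0.14. slc27a2a, an acyl-CoA synthetase of very long chains, fell by 0.63 ± 0.19 (adjusted p = 0.0127), while acsbg2, another acyl-CoA synthetase, was higher by 0.58 ± 0.21 (adjusted p = 0.0396) and lost that call in 14 of 24 such fits.

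Mitochondrial oxidation was thinly covered, since only 3 of 20 listed genes had a probe with 1 symbol in the annotation. Probes without a symbol were not searched for the others, so the array may hold more of them. Besides echs1 and acad9 only acadvl, the very-long-chain acyl-CoA dehydrogenase, was measured, at 0.09 ± 0.13 (SE, adjusted p = 0.621). No median is given for this list, since its middle value is that of acad9. Of 4 peroxisomal genes 1 was higher and 2 were lower, with a median of -0.45. scp2a, which encodes a sterol carrier with a peroxisomal thiolase, fell by 1.05 ± 0.12 (adjusted p = 1.32e-06), and phyh, which starts the breakdown of branched phytanic acid, fell by 0.65 ± 0.17 (adjusted p = 0.00595). decr2, a peroxisomal reductase needed for polyunsaturated chains, rose by 0.95 ± 0.12 (adjusted p = 6.19e-06), with calls at 24, 48 and 96 h. Its 24 h call (0.88, adjusted p = 0.0231) was lost in 5 of 24 fits that left out 1 array (any control of that time, or exposed replicate 2 or 3, with values from 0.68 to 0.93), in the authors' table, with the 6 arrays of the time alone, by the methods' t-test and in Cy5 alone.

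Of 25 listed regulators 11 were measured. None of these was called higher and 3 were called lower, with a median of -0.25 and with 2 averaged differences above 0. Listed regulators without a probe of 1 symbol were not read, so their direction is not known here. The fatty acid receptors ppardb and pparg fell by 0.27 ± 0.08 (SE, adjusted p = 0.0149) and 0.43 ± 0.13 (adjusted p = 0.0181). cebpa, a transcription factor of hepatocytes and fat cells, fell by 0.55 ± 0.19 (adjusted p = 0.036), with a difference of -1.59 ± 0.39 at 24 h (adjusted p = 0.0118), and its averaged call was lost in 13 of 24 fits that left out 1 array. In Cy5 alone ppardb turned to 0.13 averaged, pparg was -1.38 and cebpa lost its averaged call (-0.27, adjusted p = 0.343) and that of 24 h (-0.83, adjusted p = 0.271). Without background correction the averaged calls of pparg (-0.30, adjusted p = 0.0533) and cebpa (-0.35, adjusted p = 0.0577) were lost.

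**Figure D4:**
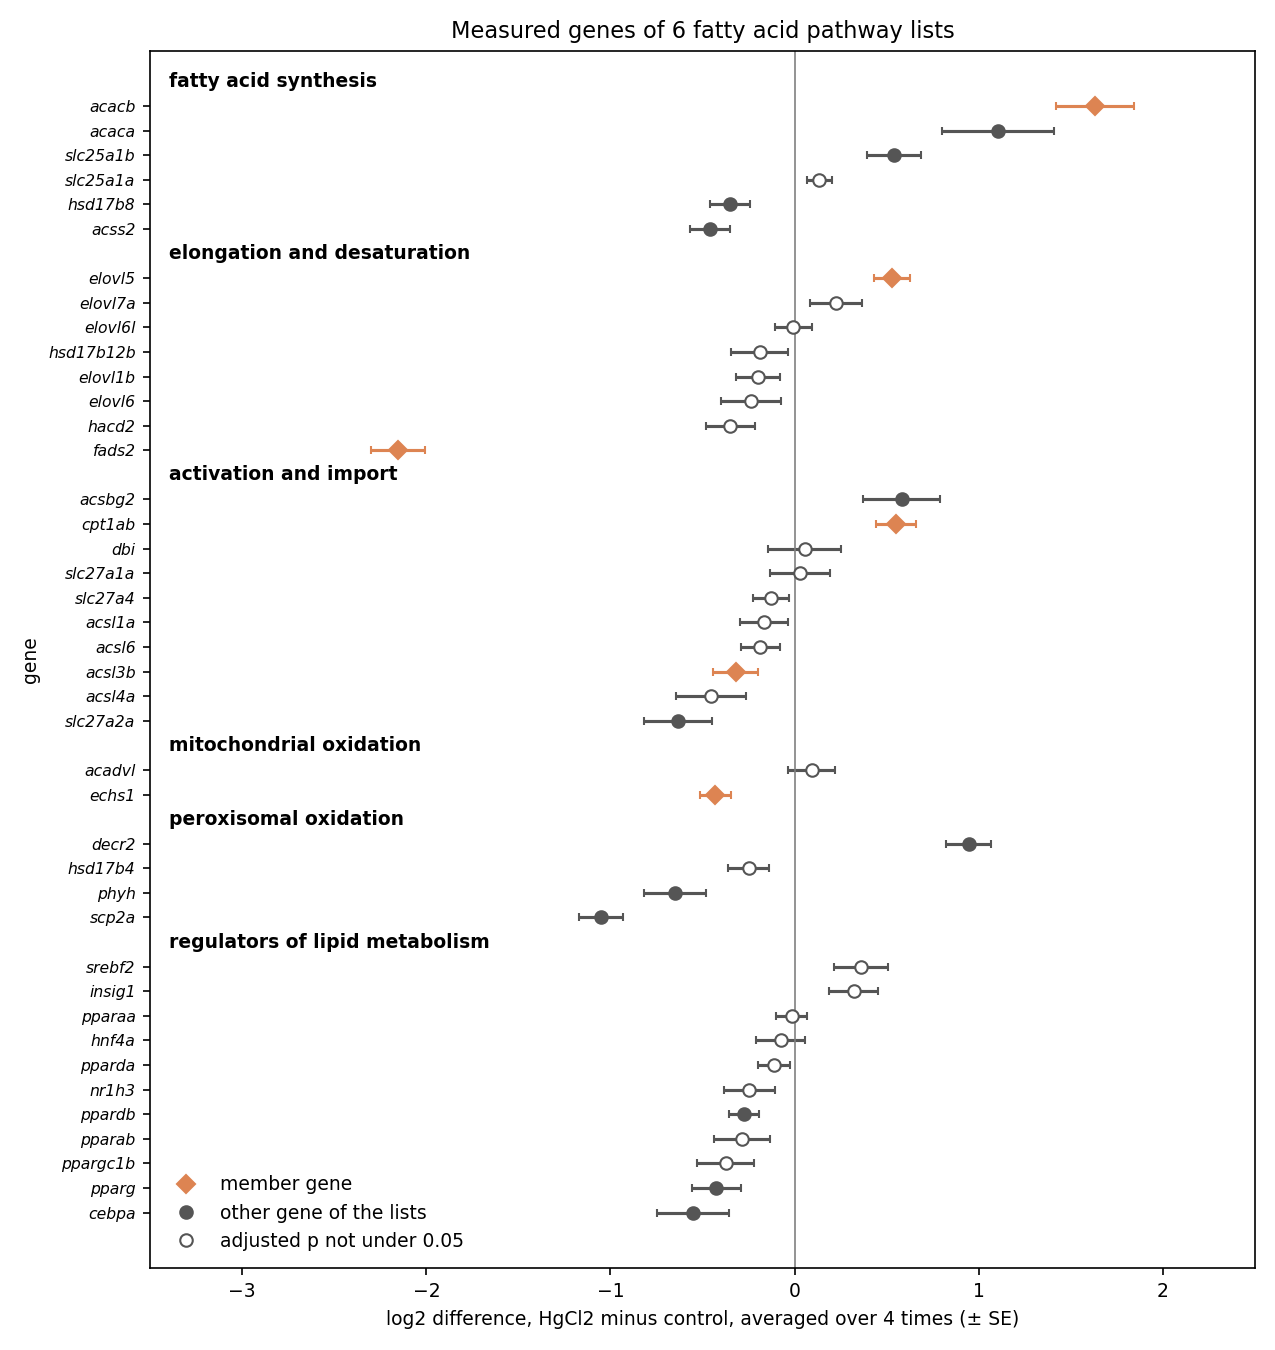
Averaged log2 difference, HgCl2 minus control (horizontal axis, ± SE), of the measured genes in 6 lists (acad9, below background, is left out), with the member genes as diamonds and filled symbols where the adjusted p was under 0.05. acacb and fads2 mark the 2 ends, and rises and falls stand side by side in synthesis and in peroxisomal oxidation.

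Genes of other cells differed with exposure on average too, though not alike at every time. As a mean log2 ratio per array, 5 ovary genes ran from -2.12 to 0.25 in controls and from -1.29 to 2.99 in exposed fish, with all 5 called higher on average. For 7 leukocyte genes the ranges were -0.22 to 0.28 and -0.02 to 1.35 (4 higher, 1 lower), for 4 exocrine pancreas genes -1.14 to 0.91 and -1.74 to 0.36 (4 lower), and for 4 red blood cell genes 0.29 to 1.49 and -0.05 to 0.74 (2 lower). For 6 hepatocyte genes they were -0.40 to 0.27 and -0.16 to 0.63 (3 higher, none lower). At 96 h the median difference of the ovary genes was 1.12, and none was called. For exocrine pancreas the median was 0.49 at 8 h and -2.08 at 96 h, and for leukocytes -0.10 and 1.24. Controls varied as well, since their ovary mean was -2.12 to -1.53 at 24 h and -0.28 to 0.00 at 96 h. Pools of a single time already differed widely, from -2.05 to 0.09 at 8 h and from -1.79 to 0.25 at 48 h. Among the remaining marker genes 2 of 6 of skeletal muscle were lower, neither of 2 of intestine was called, and the 1 of fat cells, cidec, was higher. Every marker gene was above background on some array. Their part in the differences of the 7 genes was not tested. Over the series, arrays of 1 group correlated at 0.292 to 0.713 in log2 ratio, and 66.8% to 95% of spots per array were above background in Cy5.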

How the data were processed

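The intensities used are each spot's median foreground and background in Cy5 and Cy3, as deposited, with no normalization per the file headers; the percent of pixels above background comes from the same deposited files. The log2 values of the authors' table, as deposited, lie, for at least 90% of spots on each of 24 arrays, within 1% of the ratio of mean signals less background times a constant of that array, and served as an alternative. In R 4.3.3 with limma 3.58.1, normexp correction (offset 50) was followed by loess per array with 172 beta-actin control spots at weight 0, a fit of the 8 groups (16 residual degrees of freedom), and Benjamini-Hochberg adjustment over 16340 probes. Of 16512 spots 6088 have 1 gene symbol, 75 several and 10349 none in the platform's annotation, which is old. A list gene is read by its brightest probe.

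The members and lists were chosen with earlier results of these data known. The named genes are the members, up to 4 other called genes of each list by smallest averaged adjusted p (else the 1 smallest), and the 3 probes most like each member. Alternatives were other background corrections, normalizations, the authors' table, a dim-probe filter, a replicate block, array weights, the 6 arrays of a time alone, the methods' t-test, all probes of a gene, leaving out each array and, added after seeing the data, the spot at 0 kept and Cy5 alone. The fit was tested on simulated data. Arrays have no count depth, so their number limits the precision. Figures were drawn with Python 3.11.15 and matplotlib 3.10.9.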

Additional observations from a re-analysis of the deposited data

How the results depend on the processing

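The 37 called differences named, of members and other list genes, were refitted under 1296 alternatives: 1157 kept direction and call, 137 lost the call, and 2 turned sign, both of ppardb in Cy5 alone (0.14 at 48 h, 0.13 averaged). For a single time, leaving out an array of another time cannot change the difference, only its p. The kept total includes such fits and so overstates how stable these calls were. The averages of acacb, fads2 and cpt1ab and the 96 h fall of fads2 kept their calls throughout. Of 22 uncalled differences, 12 of 786 alternatives turned sign, all of elovl5 but 1. elovl5 probe 5281120 at 24 h was 0.0241 without background correction, 0.0137 in the authors' table, 0.0944 with array weights, 0.49 in Cy5 alone, and 0.171 and 0.223 without control replicate 3 or exposed replicate 1 (range -0.169 to 0.223). It was -0.0263 at 8 h without control replicate 2 (range to 0.613), and -0.0908 and -0.0309 at 48 h without control or exposed replicate 3 (range to 0.189). In Cy5 alone elovl5 probe 5283835 was -0.603 at 8 h and -0.0726 at 24 h, and echs1 0.42 at 96 h. In Cy5 alone the called values of scp2a at 8 h (-1.72), hacd2 at 96 h (-1.60), and acss2 (-0.70) and hsd17b8 (-1.05) averaged moved by over 1.5 times, and acsbg2 was 0.37 averaged without background correction (adjusted p = 0.0908). The cause was not tested.

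Of the member counts (2, 3, 1 and 3 at 8, 24, 48 and 96 h), the 8 h count was 0 with the 6 arrays of the time alone and with the methods' t-test, 1 with the spot at 0 kept, and 3 with plain subtraction, which added acsl3b. In Cy5 alone fads2 lost its calls at 8, 24 and 48 h, and the count of 1 at 48 h came from elovl5 probe 5281120. The t-test gave 0 at 24 and 48 h and 2 at 96 h, where acacb and elovl5 probe 5283835 lost their calls. Before adjustment it gave 2, 3, 2 and 6 members at 8, 24, 48 and 96 h, beside 9.89%, 18.9%, 19.2% and 25.5% of all probes. Array weights gave 2 at 48 h, 5 at 96 h and 1 between controls. Cy5 alone gave 0 at 24 h, 5 at 96 h, 1 for each of 96 h against 8 h and 24 h, and 1 between controls; plain subtraction gave 1 for 96 h against 8 h. Leaving out 1 array gave 0 to 2, 2 to 4, 1 to 2 and 2 to 4 at the 4 times, 5 to 7 averaged, 4 to 6 over all groups and 0 to 0 between times and between controls. Of the list genes (3, 7, 3 and 7), the 8 h count was 0 with 6 arrays, 0 by t-test and 5 in Cy5 alone, that of 24 h was 4, 0 and 3, that of 48 h was 7 with array weights and 0 by t-test, and that of 96 h was 12 with 6 arrays and 13 in Cy5 alone. Without 1 array they were 0 to 3, 4 to 13, 2 to 6 and 4 to 8, and 15 to 23 averaged (18). Cy5 alone called 16.2%, 7.26%, 8.9% and 22.7% of all probes at 8, 24, 48 and 96 h. For the other alternatives no share of all probes after adjustment is given, so their counts only describe these genes. The dim-probe filter left out acad9.

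Replicate numbers were not used to pair the samples, and whether they do was not tested. Same-numbered arrays correlated weakly, at -0.03 to 0.19 in their deviations, and 1 of 12 exceeded 0.1, but 8 of 12 matched their own number best. With the replicate block the 8 h count was 1, without fads2, and the averaged call of acsl3b was lost.

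With 3 arrays per group, small differences at a single time pass rarely, the acsl3b and acad9 probes are limited by signal over background, and without dye swaps dye effects are not balanced.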

Other observations

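The probes with 1 symbol whose log2 ratios were most like those of each member over the arrays lay mostly outside fatty acid metabolism. For acacb these were abca1a, which exports cholesterol (r = 0.908 over 24 arrays), sdc4, a cell-surface proteoglycan (0.905), and phip (0.888). abca1a was higher in exposed fish by 1.25 ± 0.15 (SE) and sdc4 by 2.02 ± 0.26. For fads2 they were ssuh2.2 (r = 0.947 over 23 arrays), cep72 (0.945) and ankrd6b (0.942), with averaged log2 differences of -1.78, -0.44 and -1.81. These probes were picked for likeness to members that differed with exposure. Their own differences therefore follow from the pick and test nothing.

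The remaining members had less close matches. For echs1 they were lrrc17 (r = 0.862), bco2l, a carotenoid-cleaving oxygenase (0.815), and igf2b, a growth factor (0.80). For cpt1ab they were ptpn11a (0.831), rfx2 (0.822) and ston2 (0.793), and for acsl3b pdgfab (0.759), bmp4 (0.742) and si:dkey-23k10.5 (0.72). For elovl5 probe 5281120 they were oxct1b, an enzyme of ketone body use (0.81), tmed10 (0.808) and sec61a1b (0.785), and for probe 5283835 zgc:113142 (0.81), myh10 (0.792) and ywhaba (0.784), so the 2 elovl5 probes shared none of them. For acad9, below background, they were amd1 (0.791), linc.pou2af1 (0.765) and lztfl1 (0.715). These correlations describe likeness over arrays that share the exposure, and each was chosen as the highest of about 5915 probes.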
